A study of Homo sapiens with 48 samples.

Results

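The ligands, SMAD proteins, corepressors and targets of transforming growth factor beta (TGF-beta) signalling were followed through 18 h of cAMP-raising treatment in BEAS-2B, a human bronchial epithelial cell line. The set held 10 genes out of 19775 with a probe set of their own: the ligands TGFB1, TGFB2 and INHBA, the receptor-activated SMAD3, the inhibitory SMAD6 and SMAD7, the corepressors SKIL and TGIF1, and the targets ID1 and ID2. They were chosen by name, with earlier results of these data known. Each gene was read from its brightest probe set among the 30 that carried only its symbol.

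Confluent BEAS-2B cells had been given vehicle, indacaterol with GSK256066 (Ind/GSK, 10 nM each) or GS-5759 (10 nM) for 1, 2, 6 or 18 h. Indacaterol is a long-acting agonist of the β2-adrenoceptor, GSK256066 inhibits the cAMP-degrading enzyme phosphodiesterase 4, and GS-5759 is a bifunctional molecule with both activities. All 12 groups shared 3 days in keratinocyte serum-free medium with epidermal growth factor, bovine pituitary extract and antibiotics, followed by 24 h in the same medium without these supplements. Each group had 4 samples, each on its own Affymetrix U133 Plus 2.0 array. The labels number the replicates 1 to 4 but do not say that they were separate cultures. The p-values rest on the spread among samples within groups, pooled over the 12 groups. It includes the differences between replicate numbers given below, except in the fits that take the replicate number into account. This spread may not stand for that among independent cultures. BEAS-2B is a single immortalised line, and the labels name no added ligand of the TGF-beta family.

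Ligands of this family bind paired receptor kinases, which phosphorylate SMAD2 and SMAD3 (TGF-beta and activins) or other SMADs (bone morphogenetic proteins, BMPs). The phosphorylated SMADs enter the nucleus and regulate targets such as ID1, SMAD6 and SMAD7, while SKIL and TGIF1 hold SMAD complexes in a repressive state. In airway epithelium TGF-beta is known for growth arrest and for matrix and mesenchymal gene expression.

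RefSeq places the ligands TGFB1 at chr19:41330323-41353922, TGFB2 at chr1:218345336-218444619 and INHBA at chr7:41685114-41705406 in GRCh38.p14. The SMAD genes are SMAD3 at chr15:67065602-67195169, SMAD6 at chr15:66702236-66782849 and SMAD7 at chr18:48919853-48950965. The corepressors are SKIL at chr3:170357715-170396849 and TGIF1 at chr18:3412009-3459978, and the targets ID1 at chr20:31605289-31606510 and ID2 at chr2:8682056-8684461.

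The β2-agonist pathway acts on chromatin through CREB, which binds the cAMP response element TGACGTCA and its shorter core TGACG. The 250 bases upstream of the members' annotated RefSeq start sites (GRCh38.p14) were therefore read, with 22 start sites over the 10 genes. They are shown for TGIF1, which had the strongest response, for SKIL and TGFB2, which held the core, and for ID1. TGACG on either strand (CGTCA where it lies on the minus strand) is in capitals, the other bases are in lower case, and every window is on the plus strand and reads 5′ to 3′ towards the start site.
TGIF1, the outermost of 7 start sites, chr18:3411759-3412008: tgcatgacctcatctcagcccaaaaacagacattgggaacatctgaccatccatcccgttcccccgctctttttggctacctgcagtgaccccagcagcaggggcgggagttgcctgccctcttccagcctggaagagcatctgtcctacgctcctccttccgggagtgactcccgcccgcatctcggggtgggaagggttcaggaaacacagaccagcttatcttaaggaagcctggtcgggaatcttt
SKIL, chr3:170357465-170357714: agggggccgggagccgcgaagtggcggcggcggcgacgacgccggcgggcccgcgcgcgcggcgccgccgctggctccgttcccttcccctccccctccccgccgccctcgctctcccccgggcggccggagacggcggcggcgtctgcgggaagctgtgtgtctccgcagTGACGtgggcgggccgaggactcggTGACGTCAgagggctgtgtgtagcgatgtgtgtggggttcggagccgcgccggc
TGFB2, chr1:218345086-218345335: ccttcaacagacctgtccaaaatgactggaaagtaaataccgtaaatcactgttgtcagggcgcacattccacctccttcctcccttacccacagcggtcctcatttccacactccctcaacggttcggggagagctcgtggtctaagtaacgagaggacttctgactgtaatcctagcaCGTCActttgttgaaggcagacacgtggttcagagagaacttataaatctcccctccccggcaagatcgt
ID1, chr20:31605039-31605288: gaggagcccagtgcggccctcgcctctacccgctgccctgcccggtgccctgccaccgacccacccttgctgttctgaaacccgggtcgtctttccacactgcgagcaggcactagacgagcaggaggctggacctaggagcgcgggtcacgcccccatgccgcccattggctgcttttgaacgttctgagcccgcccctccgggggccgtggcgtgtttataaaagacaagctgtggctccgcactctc
The SKIL window held 3 matches to TGACG, starting 79, 54 and 51 bases before the start site. The last pair of matches overlap on opposite strands and together form the full element TGACGTCA, which 1.65% of 35116 promoter windows of this length held. TGFB2 had a TGACG 70 bases before its start, and 1 of 5 SMAD3 start sites had one 242 bases before it. The shorter TGACG was present in 21.2% of all windows. No TGACG was found in the 7 windows of TGIF1 or in those of ID1 and ID2, which says only that these letters are not in these windows. The palindrome GTCTAGAC, which SMAD3 binds in textbook descriptions, was found in SMAD6 alone among the members (0.182% of all windows), and the BMP-linked GGCGCC in SMAD3 and SKIL (16.4% of all windows).

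The values are signals on a linear scale; differences are of group means of log2(signal + 16), given with their SE. A gene was called higher or lower where the adjusted p of limma (Benjamini-Hochberg over 14409 genes) passed 0.05. Same-numbered arrays deviated together, so a second limma fit held the replicate number as a block, and its adjusted p is given where it changed a call. INHBA, at a mean log2 level of 6.49, lay just below the level of 6.51 that a gene had to exceed to be tested, so 9 of the 10 members were tested. Fewer cells and less RNA per cell cannot be told apart in these bulk samples.

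The arrays of replicate 3 stood apart. Over its 12 arrays the basal keratin KRT5 gave signals of 29513 to 36309, against 108 to 277 over the arrays of the other numbers, and KRT14 gave 186879 to 441003 in replicate 3 with no value above 32 elsewhere. The summed signal of 8 epithelial markers ran from 245334 to 498646 in replicate 3 and from 9126 to 20044 in the others. Most of the sum in replicate 3 was KRT14 alone (median 316416, beside a median sum of 374965). Within replicate 3 the sum was 245334 to 329575 with vehicle, 346364 to 498646 with Ind/GSK and 372663 to 452242 with GS-5759. KRT8 and KRT18, keratins of simple epithelium, were bright on every array (at least 3112 and 5313). The mesenchymal VIM (at least 9900) and COL1A1 (at least 6459) were bright too, while COL3A1 and LUM had medians of 86.7 and 79.6. The leukocyte gene PTPRC (at most 41.9), the endothelial CDH5 (at most 20.8) and the ciliated-cell FOXJ1 (at most 30.7) were dim. Other genes of their lists were brighter, with LYZ at least 238.4, PECAM1 at least 423.7 and MUC5AC at least 114. Above the level for testing were 3 of 4 leukocyte, 2 of 4 endothelial and 1 of 4 ciliated and secretory markers. No gene of these marker lists was called in a treatment comparison without the block. Their part in the results below was not tested, and results are given without replicate 3 where they rest on it. Of 10 tested cAMP-CREB targets, 9 were called higher at 2 h with either treatment, where 1.34% (Ind/GSK) and 1.6% (GS-5759) of all genes were. NR4A3 rose by 5.46 ± 0.57 with Ind/GSK (limma adjusted p = 3.94e-08). This list was chosen with earlier results of these data known, so it is no independent check of the drugs.

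TGIF1 was the member called without the replicate block; ID1, SKIL, SMAD7 and others were called with it, as given below. TGIF1 rose about as far with both treatments at 1 h and 2 h, and its difference from vehicle was small at 6 h and near 0 at 18 h. At 1 h it was the only member called higher with Ind/GSK, where 0.451% of all tested genes were called higher (1.83% in either direction), and with GS-5759, where 0.257% were (0.271% in either direction). At 2 h it was again the only one, against 1.34% of all genes called higher with Ind/GSK (3.49% in either direction) and 1.6% with GS-5759 (2.43%). No member was called lower, where 1.38% and 2.15% of genes were at 1 and 2 h with Ind/GSK and 0.0139% and 0.833% with GS-5759. The median over all genes at 1 h with Ind/GSK was -0.10 as deposited and 0.02 after centring each array on its 75th percentile, which moved the all-gene calls from 65 higher and 199 lower to 196 and 15, while TGIF1 was called higher under both.

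**Figure D1:**
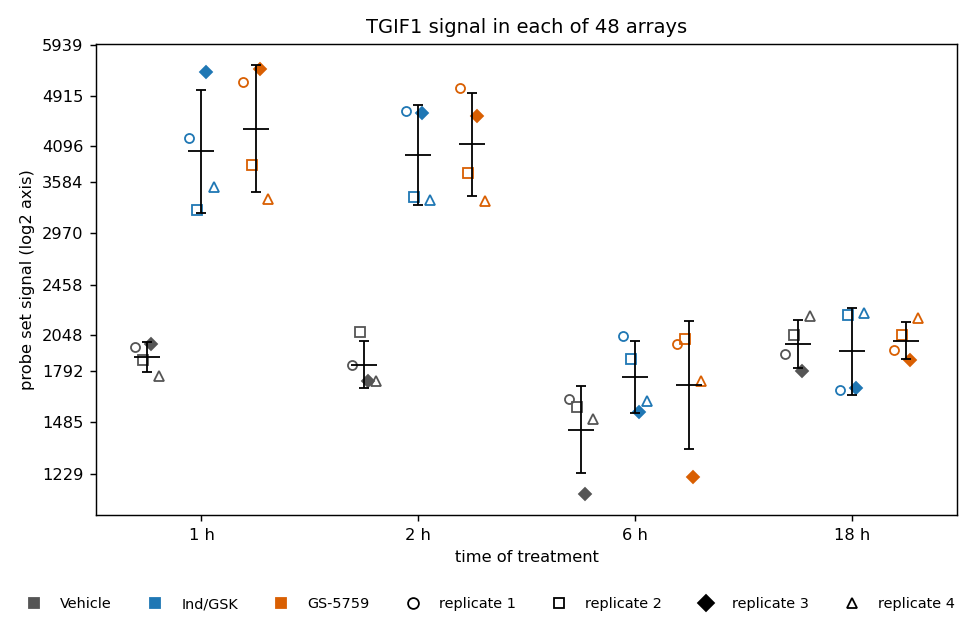
Signal of the TGIF1 probe set (log2 axis) in each array against time, coloured by treatment, with a symbol for each replicate number; bars are the mean and SD of 4 arrays on the log2 scale. The 8 treated arrays at each of 1 and 2 h lie at 3238 or above, and no vehicle array exceeds 2193.

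TGIF1 is a homeodomain corepressor that recruits histone deacetylases to SMAD2 and SMAD3 complexes. Its signals at 1 h in replicates 1 to 4 were 1956, 1863, 1979 and 1758 with vehicle, 4226, 3238, 5377 and 3527 with Ind/GSK, and 5177, 3821, 5442 and 3368 with GS-5759. Every treated array was above every vehicle array, where 7.66% of all genes did not overlap in either direction with Ind/GSK and 2.72% with GS-5759, and replicates 1 and 3 were the highest in both treated groups. The difference was 1.08 ± 0.16 with Ind/GSK (2.12-fold, limma adjusted p = 8.66e-05) and 1.20 ± 0.16 with GS-5759 (2.30-fold, limma adjusted p = 1.05e-05). The Ind/GSK call was lost in a fit on the 2 groups compared alone (1.08 ± 0.15, limma adjusted p = 0.105).

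At 2 h TGIF1 gave 1833, 2070, 1729 and 1725 with vehicle, 4661, 3401, 4628 and 3352 with Ind/GSK, and 5072, 3714, 4566 and 3346 with GS-5759. The groups again did not overlap (7.72% of all genes with Ind/GSK and 8.37% with GS-5759 did not), and replicates 2 and 4 were the lower pair in both treatments. The rise was 1.10 ± 0.16 with Ind/GSK (limma adjusted p = 1.79e-05) and 1.16 ± 0.16 with GS-5759 (limma adjusted p = 6.4e-06). Without replicate 3, with the replicate block, these became 1.00 ± 0.14 and 1.08 ± 0.14, both still called.

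By 6 h the treated arrays lay closer to the vehicle arrays. Vehicle gave 1617, 1568, 1140 and 1500, Ind/GSK 2040, 1873, 1540 and 1602, and GS-5759 1980, 2016, 1213 and 1724. In each of the 4 same-numbered pairs the treated array was above vehicle, as for 9.74% of all genes with Ind/GSK and 17.4% with GS-5759. The highest vehicle array was exceeded by replicates 1 and 2 of Ind/GSK and 1, 2 and 4 of GS-5759, and the differences of 0.28 ± 0.16 and 0.23 ± 0.16 were not called (limma adjusted p = 0.479 and 0.63). At 18 h the differences were -0.04 and 0.02.

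The mean response of TGIF1 to both treatments changed by -0.88 ± 0.20 between 2 h and 6 h (limma adjusted p = 0.0251), the only member called lower in that contrast, where 0.257% of genes were. This call was less firm than the rise: it was kept in 32 of 42 alternative fits and lost without replicate 1 (limma adjusted p = 0.225), 2 (0.137) or 4 (0.132), or without a single vehicle array in 5 cases. From 1 h to 2 h the response differed by -0.01 ± 0.20. In vehicle, TGIF1 was lower at 6 h than at 2 h in each same-numbered pair, as for 9.74% of all genes (-0.34 ± 0.16, limma adjusted p = 0.558). It was then higher at 18 h by 0.45 ± 0.16 (limma adjusted p = 0.0649, and 0.0283 with the replicate block). That block call was lost without replicate 1, 2 or 4 (adjusted p up to 0.116).

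A further TGIF1 probe set, with a mean signal of 188.8, gave 1.06 and 0.86 with Ind/GSK at 1 h and 2 h and 1.22 and 1.08 with GS-5759, all 4 called. The dimmest TGIF1 probe set (mean signal 152.9) gave 0.31 to 0.39 in the same 4 comparisons and was called in 1 of them, GS-5759 at 2 h (limma adjusted p = 0.0447). Over the 12 group means the genes whose profiles were most like that of TGIF1 were NEDD9 (Pearson r = 0.989), ZNF331 (0.978) and IRF2BP2 (0.965). These are descriptions over 12 means that share treatments and times.

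**Figure D2:**
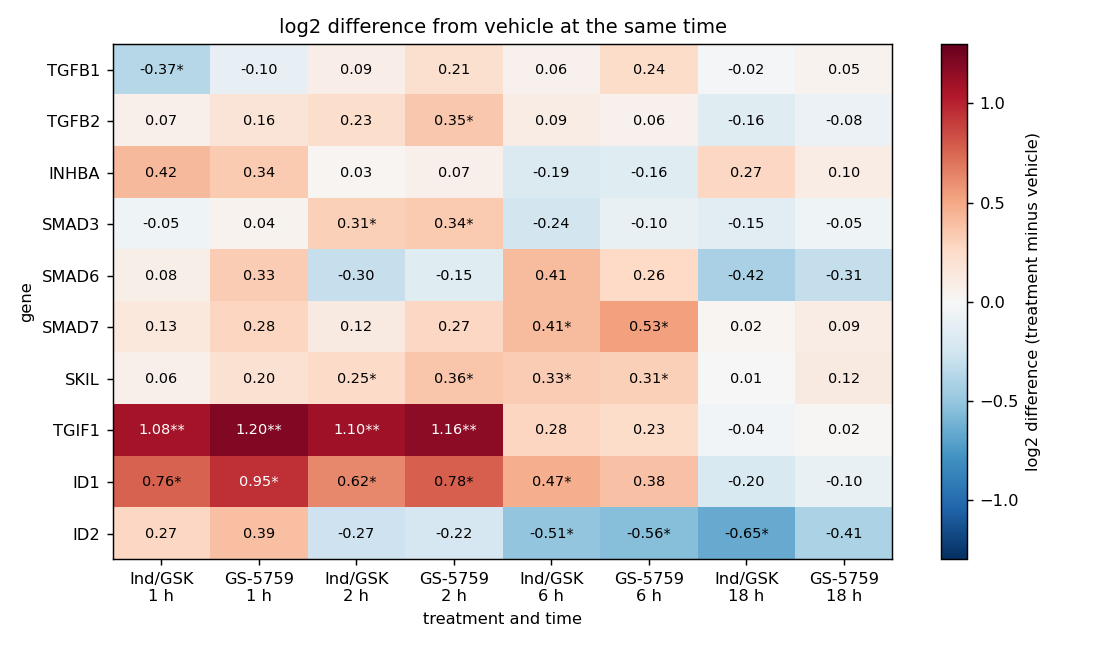
Log2 difference from vehicle at the same time (treatment minus vehicle) for the 10 genes (rows) in the 8 treatment comparisons (columns). Double asterisks mark limma calls without the replicate block and single asterisks calls gained with it; TGIF1 at 1 and 2 h holds the 4 double asterisks, and INHBA was not tested.

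Except for TGIF1 at 1 and 2 h, no member's difference from vehicle was called without the block. Over the 9 tested members the median difference was 0.08 and 0.28 at 1 h (Ind/GSK, then GS-5759), 0.23 and 0.34 at 2 h, 0.28 and 0.24 at 6 h and -0.15 and -0.05 at 18 h, beside medians over all tested genes of -0.10 and -0.02, -0.05 and -0.01, -0.04 and -0.00, and -0.02 and 0.01. No member was called at 6 h, where 1.03% of all genes were called higher with either treatment, nor at 18 h, where 0.0208% were called higher with Ind/GSK and 0% with GS-5759. At an unadjusted p under 0.05, 1 member passed in each of these 4 comparisons, against 2106, 1790, 849 and 462 of all genes. Lower calls made up 2.7% and 0.548% of genes at 6 h (3.73% and 1.58% in either direction) and 0.0278% and 0% at 18 h (0.0486% and 0%).

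With the replicate block more members passed, and so did more genes. For Ind/GSK, 2 members were called higher and 1 lower at 1 h (2.28% and 15.8% of all genes, 18.1% in all), 4 and 0 at 2 h (3.76% and 8.09%, 11.9% in all), 3 and 1 at 6 h (4.68% and 13.1%, 17.8% in all) and 0 and 1 at 18 h (0.514% and 1.37%, 1.88% in all). For GS-5759 they were 2 and 0 at 1 h (0.999% and 0.354%, 1.35% in all), 5 and 0 at 2 h (5.27% and 4.05%, 9.33% in all), 2 and 1 at 6 h (6.01% and 4.58%, 10.6% in all) and 0 and 0 at 18 h (0.0972% and 0.0486%, 0.146% in all).

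Among the ligands, neither TGF-beta gene was called without the block. TGFB2, the isoform with the brighter probe set here, gave 1238, 1655, 1134 and 1508 with vehicle at 2 h, 1603, 1677, 1497 and 1643 with Ind/GSK, and 1636, 1993, 1558 and 1830 with GS-5759. Each treated array exceeded the vehicle array of its own number (8.56% and 15.1% of all genes did so with Ind/GSK and GS-5759), while the groups overlapped. The differences were 0.23 ± 0.17 and 0.35 ± 0.17 (limma adjusted p = 0.641 and 0.393), and the GS-5759 difference was called only with the replicate block (adjusted p = 0.022). That call was lost without replicate 1, 3 or 4 (adjusted p up to 0.113). At 6 and 18 h the 4 differences of TGFB2 lay between -0.16 and 0.09. These TGFB2 values are from the brightest of its 5 probe sets, and those of the others are not given here.

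TGFB1, the prototype of the family, gave 1016, 1133, 872 and 1001 with vehicle at 1 h, 696, 780, 708 and 922 with Ind/GSK, and 979, 750, 917 and 1117 with GS-5759. Ind/GSK was lower in each same-numbered pair, as were 33.4% of all genes, whereas the GS-5759 arrays reached from below the vehicle range to within it. The Ind/GSK difference of -0.37 ± 0.13 was not called (limma adjusted p = 0.112) and was called lower with the block (adjusted p = 0.0153). It was not called with the block after 75th percentile centring or quantile normalization, nor without replicate 1 or 2 (adjusted p up to 0.2). A dimmer TGFB1 probe set (mean signal 94.3) gave 0.40 in the same comparison, the opposite sign. In vehicle TGFB1 was lower at 2 h than at 1 h by a like amount, -0.37 ± 0.13 (limma adjusted p = 0.114; 0.0164 with the block, lost under both scalings). Later TGFB1 differences from vehicle ran from -0.02 to 0.24.

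INHBA encodes the subunit of activin A. Its vehicle signals at 1 h were 56.8, 45.3, 58.1 and 83.9, against 85.3, 70.2, 95.4 and 92.9 with Ind/GSK and 92.9, 78.2, 82.6 and 68.2 with GS-5759. The treated arrays were mostly above vehicle, with replicate 4 of vehicle among them, and every value was close to the lower limit for testing. The differences were 0.42 ± 0.16 and 0.34 ± 0.16, and no INHBA difference was called in a fit of all genes without that limit. Its other probe sets, dimmer still, gave 0.07 and 0.09 with Ind/GSK at 1 h.

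SMAD3, which carries the TGF-beta and activin signal to DNA, was higher at 2 h and lower at 6 h in same-numbered pairs. At 2 h it gave 1162, 1012, 1204 and 905 with vehicle, 1535, 1278, 1602 and 980 with Ind/GSK, and 1591, 1197, 1672 and 1057 with GS-5759. Replicates 1 and 3 were the high pair in all 3 groups, and the treated groups overlapped vehicle through replicate 4 of both and replicate 2 of GS-5759. The differences of 0.31 ± 0.17 and 0.34 ± 0.17 were not called (limma adjusted p = 0.428 and 0.405) but were with the replicate block (adjusted p = 0.0179 and 0.0107). Without replicate 1 both calls were lost, and without replicate 2 the Ind/GSK call (adjusted p up to 0.158). Without replicate 3 they remained, at 0.28 and 0.30.

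At 6 h SMAD3 gave 1127, 868, 909 and 792 with vehicle, 961, 744, 684 and 735 with Ind/GSK, and 1030, 825, 805 and 789 with GS-5759. All 8 treated arrays were below their own number's vehicle array, by little in replicate 4; 27.4% of all genes were lower in all 4 pairs with Ind/GSK and 17.9% with GS-5759. The differences were -0.24 ± 0.17 and -0.10 ± 0.17, called with neither fit. The change of the mean response between 2 h and 6 h was -0.49 ± 0.21 (limma adjusted p = 0.485), and it was called lower with the block (adjusted p = 0.00475), though not without replicate 1 (adjusted p = 0.0943). The 3 other SMAD3 probe sets gave 0.15 to 0.47 at 2 h and -0.39 to -0.10 at 6 h.

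**Figure D3:**
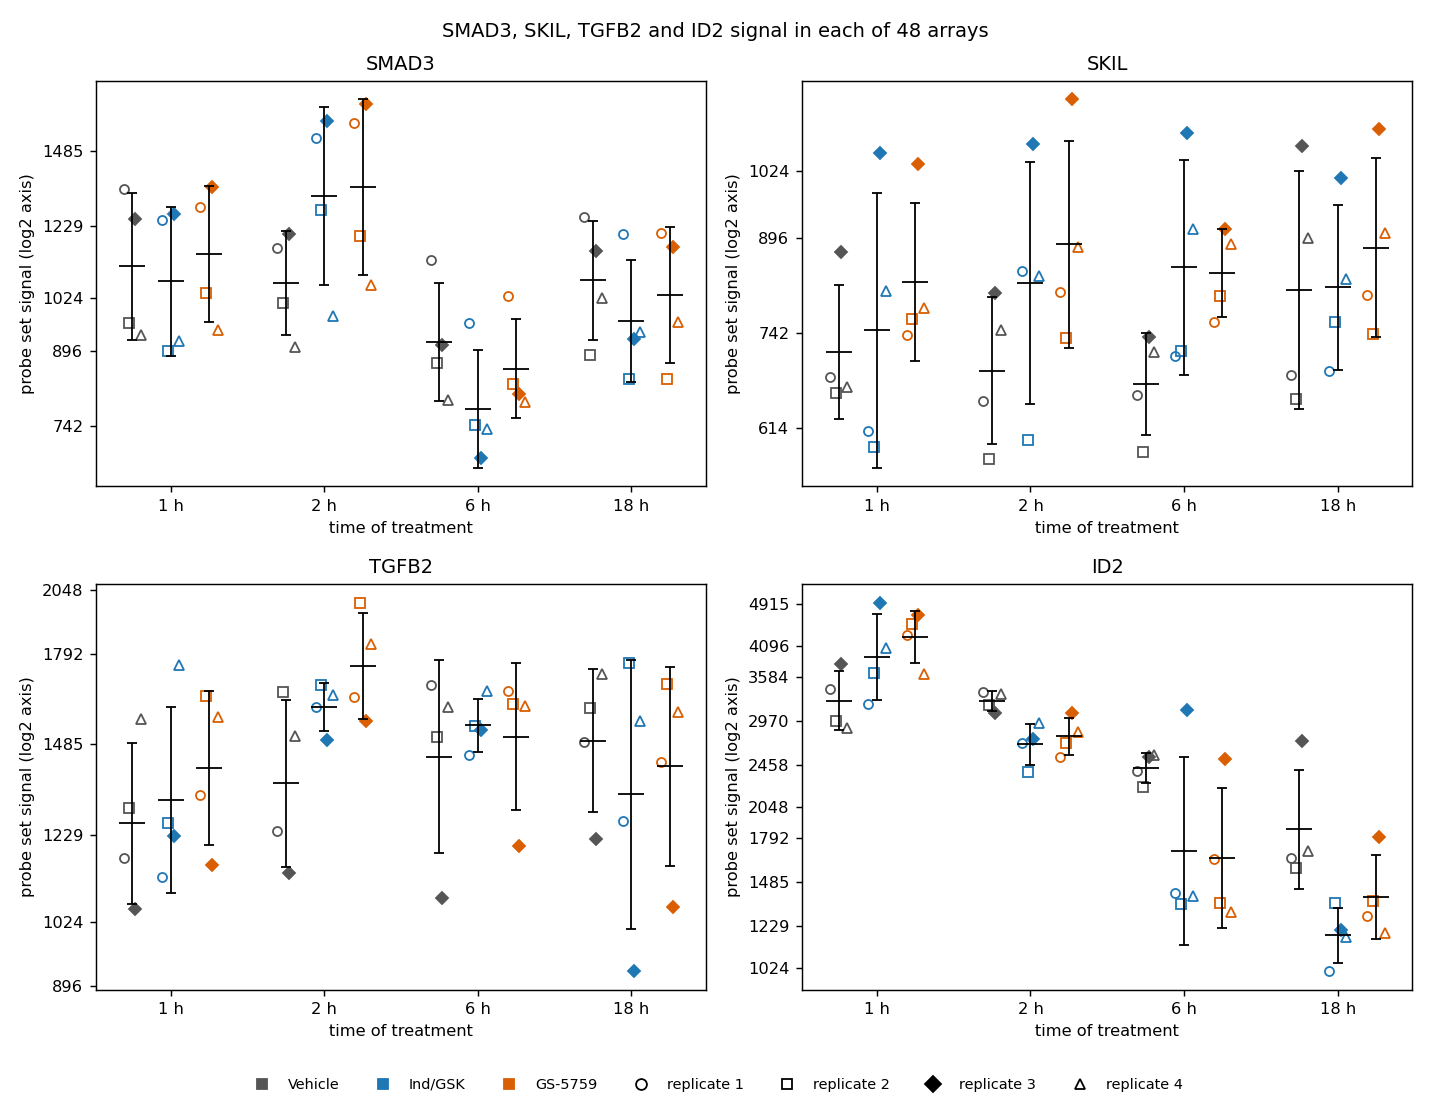
Signals of SMAD3, SKIL, TGFB2 and ID2 (log2 axes) in each array against time, coloured by treatment, with a symbol for each replicate number; bars are the mean and SD of 4 arrays on the log2 scale. SMAD3 is highest in the treated groups at 2 h, and the ID2 means are lower at 6 and 18 h than at 1 h in all groups, with the filled diamonds of replicate 3 high at 6 h after Ind/GSK (3113) and at 18 h with vehicle (2726).

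SMAD6 and SMAD7 are inhibitory SMADs that block receptor signalling, SMAD6 mainly that of BMPs. SMAD7 showed strong differences between replicate numbers: they accounted for 86.7% of its sum of squares, and the groups for 7.85%. At 6 h it gave 138.7, 60.2, 137.9 and 53.2 with vehicle, 180.7, 73.7, 229.1 and 74.2 with Ind/GSK, and 216, 96.1, 208.5 and 77.4 with GS-5759. Replicates 1 and 3 were high and replicates 2 and 4 low in each group, and each treated array exceeded its own number's vehicle array (9.74% and 17.4% of all genes did so). The differences were 0.41 ± 0.44 and 0.53 ± 0.44 (limma adjusted p = 0.806 and 0.721), and with the replicate block both were called higher (adjusted p = 0.00861 and 0.00133). Without replicate 3 the Ind/GSK value was 0.32 and not called (adjusted p = 0.0963), while the GS-5759 value was 0.52 and called (0.00864). SMAD7 in vehicle was also at its lowest at 6 h, lower than at 2 h by 0.41 and than at 18 h by 0.41, and the latter difference was called in all 7 fits with the block (adjusted p = 0.00511 in the one on all arrays).

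SMAD6 was dim and its probe sets disagreed. The brightest (mean signal 127.2) gave 0.41 ± 0.22 and 0.26 ± 0.22 at 6 h and -0.42 ± 0.22 and -0.31 ± 0.22 at 18 h, and the next (123.3) gave -0.12 and -0.22 at 6 h and -0.02 and 0.21 at 18 h. None of these differences was called with limma without the block. The change of the mean response from 6 h to 18 h, -0.70 ± 0.26, was called only with the block (adjusted p = 0.017), and not without replicate 1, 3 or 4 (up to 0.135). In view of the disagreement, no direction is given for SMAD6.

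SKIL, also known as SnoN, binds SMAD complexes and represses their targets. At 2 h it gave 648, 578, 803 and 746 with vehicle, 839, 600, 1081 and 832 with Ind/GSK, and 805, 734, 1182 and 881 with GS-5759. Replicate 3 was the highest array of each group, and the groups overlapped. The differences were 0.25 ± 0.18 and 0.36 ± 0.18, called higher only with the block (adjusted p = 0.0395 and 0.00266; 0.638 and 0.441 without it).

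At 6 h SKIL gave 656, 586, 736 and 714 with vehicle, 709, 715, 1106 and 913 with Ind/GSK, and 758, 799, 914 and 886 with GS-5759. Here all 4 GS-5759 arrays lay above all 4 vehicle arrays (8.15% of all genes did not overlap), and the lower pair of Ind/GSK arrays lay within the vehicle range. The differences were 0.33 ± 0.18 and 0.31 ± 0.18, again called higher only with the block (adjusted p = 0.00365 and 0.00889). Of the 4 block calls of SKIL, that of GS-5759 at 2 h held in all 7 block fits. Without replicate 3 the Ind/GSK differences were 0.19 at 2 h and 0.25 at 6 h and not called (block adjusted p = 0.235 and 0.0703). The Ind/GSK call at 2 h was also lost without replicate 1 or 4. The GS-5759 call at 6 h was lost without replicate 2 or 4 (adjusted p up to 0.074). A SKIL probe set with a mean signal of 177 gave 0.32 and 0.38 at 2 h and 0.33 and 0.42 at 6 h, none called.

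ID1 is a helix-loop-helix protein that keeps basic partners off DNA and is a direct target of BMP signalling. Its level depended mainly on the replicate number, which accounted for 83.0% of the sum of squares. At 1 h the signals were 1945, 360.5, 4630 and 435.4 with vehicle, 3348, 695.1, 7024 and 746.8 with Ind/GSK, and 3449, 800.1, 8550 and 885.8 with GS-5759. Within each number the treated arrays were above vehicle, as for 4.38% and 7.16% of all genes with Ind/GSK and GS-5759, while between numbers the levels ran over 10.1-fold (mean log2 level 11.87 in replicate 3 and 8.52 in replicate 2).

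The ID1 differences at 1 h were 0.76 ± 1.11 and 0.95 ± 1.11 without the block (limma adjusted p = 0.733 and 1). With it, ID1 rose with both treatments (adjusted p = 0.000591 and 2.54e-05). The 4 same-numbered differences with Ind/GSK were 0.78, 0.92, 0.60 and 0.76. Without replicate 3 the block values were 0.82 ± 0.15 (adjusted p = 0.00146) and 0.98 ± 0.15 (0.000159).

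At 2 h ID1 gave 1270, 250.9, 2950 and 367 with vehicle, 1713, 543.4, 3860 and 570.9 with Ind/GSK, and 2147, 549.6, 4400 and 603.6 with GS-5759. All 8 same-numbered differences were upward (8.56% and 15.1% of all genes), the largest in replicate 2. The mean differences were 0.62 and 0.78 (block adjusted p = 0.00261 and 0.000215), and the Ind/GSK call was lost without replicate 2 (0.48, block adjusted p = 0.115). At 6 h the values 0.47 and 0.38 were smaller; the former was called with the block (adjusted p = 0.0188), though not without replicate 1 or 2 (up to 0.17), and the latter was not (0.0863). At 18 h they were -0.20 and -0.10. In vehicle ID1 was lower at 2 h than at 1 h on each number, as were 25.5% of all genes (-0.50; block adjusted p = 0.018, not called with the block under either scaling).

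**Figure D4:**
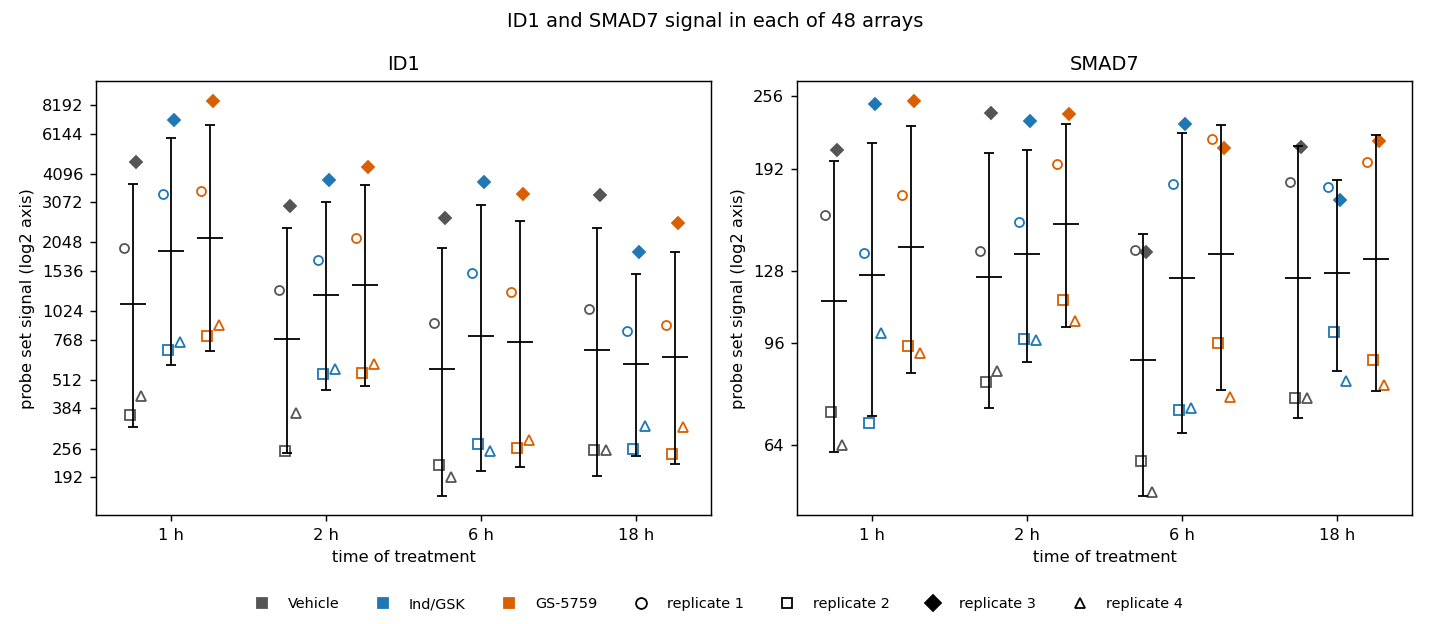
Signals of ID1 and SMAD7 (log2 axes) in each array against time, coloured by treatment, with a symbol for each replicate number; bars are the mean and SD of 4 arrays on the log2 scale. Replicate numbers keep their separation in each group, with ID1 between 192.4 and 8550, and treated symbols at 1 and 2 h lie above the vehicle symbol of the same number for ID1.

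ID2, the related helix-loop-helix protein, had lower mean signals than vehicle from 2 h on. At 2 h it gave 3364, 3179, 3069 and 3329 with vehicle, 2696, 2384, 2750 and 2938 with Ind/GSK, and 2544, 2702, 3068 and 2826 with GS-5759. All treated arrays were below all vehicle arrays, by the narrowest margin in replicate 3 of GS-5759; 7.72% and 8.37% of all genes did not overlap. The differences of -0.27 ± 0.19 and -0.22 ± 0.19 were called with neither fit (limma adjusted p = 0.625 and 0.777). At 1 h they had been 0.27 and 0.39, also not called.

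At 6 h ID2 gave 2396, 2229, 2539 and 2560 with vehicle, 1416, 1348, 3113 and 1397 with Ind/GSK, and 1636, 1356, 2516 and 1306 with GS-5759. Replicate 3 was the high array of both treated groups, and the other 6 treated arrays were far below vehicle. The differences over all arrays were -0.51 ± 0.19 and -0.56 ± 0.19 (limma adjusted p = 0.149 and 0.16; 0.0128 and 0.0105 with the replicate block). Without replicate 3, a choice made after its values were seen, ID2 was lower by -0.78 ± 0.10 with Ind/GSK and -0.74 ± 0.10 with GS-5759 and was called without the block (limma adjusted p = 4.2e-05 and 6.5e-05). The block calls over all arrays were in turn lost without replicate 1, 2 or 4 (adjusted p up to 0.167).

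At 18 h ID2 gave 1647, 1574, 2726 and 1694 with vehicle, 1012, 1354, 1207 and 1171 with Ind/GSK, and 1284, 1370, 1799 and 1190 with GS-5759. The Ind/GSK arrays were all below vehicle (2.84% of all genes did not overlap), and the vehicle group was widened by replicate 3. The differences were -0.65 ± 0.19 and -0.41 ± 0.19 (limma adjusted p = 0.377 and 1), and the former was called lower with the block (adjusted p = 0.0148), though not without replicate 1 or 3 (up to 0.211). The mean log2 levels of ID2 in vehicle were 11.67 at 1 and 2 h, 11.25 at 6 h and 10.87 at 18 h. The other ID2 probe set (mean signal 1115) gave -0.47 and -0.58 at 6 h and -0.71 and -0.46 at 18 h.

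No member was called different between GS-5759 and Ind/GSK at any of the 4 times (0% of all genes at each) or over the mean of times (0.0902%). The comparison asked whether the bifunctional molecule and the 2 separate drugs, at the same 10 nM, acted on these genes to a different extent, and it covered 36 pairs of gene and time. At an unadjusted p under 0.05, 1 of 9 members passed at 1 h, 0 at 2, 6 and 18 h and 1 over the mean, against 855, 273, 468, 54 and 2374 of all genes. TGIF1 differed by 0.12 ± 0.16 at 1 h (95% interval -0.21 to 0.45), 0.06 at 2 h (-0.27 to 0.38), -0.04 at 6 h (-0.37 to 0.29) and 0.06 at 18 h (-0.27 to 0.39). Leaving out ID1, the differences of the other 8 members ran from -0.15 to 0.27 and their intervals from -0.82 to 1.05, the outermost bounds being those of SMAD7. The intervals of ID1 without the block were the widest, from -2.33 to 2.43. All these intervals leave out the pairing and so include the differences between replicate numbers, which are large for SMAD7 and ID1. In the comparisons with vehicle without replicate 3, the SE of ID1 was 0.89 without the block and 0.15 with it. With the block too, no member was called between the treatments at any of the 4 times (0% of all genes).

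**Figure D5:**
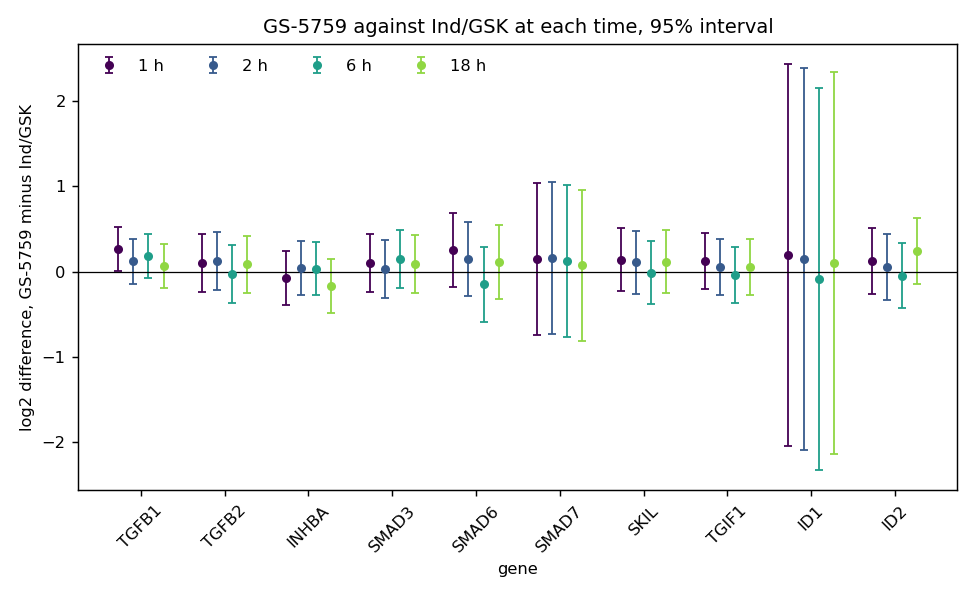
Log2 difference of GS-5759 minus Ind/GSK for each gene at 1, 2, 6 and 18 h; points are differences of means of 4 arrays and bars the 95% intervals of limma without the replicate block. All intervals cover 0 except that of TGFB1 at 1 h (0.01 to 0.53).

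TGFB1 had the largest difference between treatments over the mean of times, 0.16 ± 0.06 higher with GS-5759 (limma adjusted p = 0.224). It was called with the block (adjusted p = 0.0405), where 14.3% of all genes were called and 13.1% were higher with GS-5759. The call was lost with the block after 75th percentile centring or quantile normalization and without replicate 1, 3 or 4 (adjusted p up to 0.513).

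In vehicle alone no member was called between neighbouring times (2.57%, 0.305% and 11.5% of all genes from 1 to 2, 2 to 6 and 6 to 18 h), with 2, 2 and 1 members at an unadjusted p under 0.05 against 2405, 1234 and 3393 genes. Without the block no member's response was called different from 1 to 2 h (0.132% of genes) or from 6 to 18 h (0.361%), with 2 and 1 members at an unadjusted p under 0.05 against 1131 and 1149 genes. With the block SMAD6 and ID1 were called lower from 6 to 18 h (2.85% of genes were), ID1 by -0.57 (block adjusted p = 0.0458), and the ID1 call was lost without replicate 1, 2 or 3 (up to 0.29). With the block 3, 1 and 4 members were called between vehicle times (15.7%, 5.06% and 29.1% of all genes), the last group being SMAD7, SKIL and TGIF1 higher and ID2 lower at 18 h than at 6 h. Of that last group, the SMAD7 call held in all 7 block fits. The SKIL call was lost without replicate 3 or 4 (block adjusted p up to 0.158). The TGIF1 and ID2 calls were lost without replicate 1, 2 or 4 (up to 0.247). Without replicate 3 and without the block, vehicle ID2 was called lower at 6 h than at 2 h (-0.46 ± 0.10, limma adjusted p = 0.0382) and at 18 h than at 6 h (-0.54 ± 0.10, limma adjusted p = 0.000715), and its response to treatment was called lower at 2 h than at 1 h (-0.62 ± 0.13, limma adjusted p = 0.019; -0.57 ± 0.23 and 0.469 over all arrays).

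The rest of the pathway was read from lists of further genes. SMAD2, the partner of SMAD3 in TGF-beta signalling, was the only 1 of 21 tested SMADs and SMAD cofactors called against vehicle without the block, higher by 0.42 ± 0.08 and 0.47 ± 0.08 at 2 h and by 0.45 ± 0.08 and 0.48 ± 0.08 at 6 h (Ind/GSK, then GS-5759; limma adjusted p = 0.000406, 7.6e-05, 0.000259 and 0.000111). Of all genes, 1.34% and 1.6% were called higher without the block at 2 h, and 1.03% with either treatment at 6 h. The list's median lay between -0.06 and 0.08 at these times. With the block 2 of its genes were called higher in each of these 4 comparisons, and 1 was lower with Ind/GSK at 2 h. Of all genes, 3.76% and 5.27% were called higher with the block at 2 h and 4.68% and 6.01% at 6 h. With Ind/GSK at 2 h 8.09% were lower. Over the comparisons with vehicle without the block, 0% to 1.6% of all genes were called higher and 0% to 2.7% lower. None of 9 other tested ligands, 11 receptors or 12 other ID and BMP target genes was called against vehicle without the block. With it, the ligands had at most 2 genes higher and 1 lower in any comparison, the receptors at most 1 and 1, and the ID and BMP genes at most 2 and 1. Over all genes the block called 0.0972% to 6.01% higher and 0.0486% to 15.8% lower in these comparisons.

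Among 17 tested extracellular activators and antagonists, the BMP antagonist NOG rose by 1.00 ± 0.22 at 2 h with either treatment, and FSTL3, which binds activins, rose by 0.52 ± 0.15 and 0.64 ± 0.15 (limma adjusted p up to 0.0378). The secreted protease HTRA1 was higher at 6 h by 0.39 ± 0.10 with each. The medians of this list were 0.15 and 0.17 at 2 h. With the block 4 and 6 of its genes were called higher at 2 h (Ind/GSK, then GS-5759), where 3.76% and 5.27% of all genes were. At 6 h 6 and 3 were, beside 4.68% and 6.01% of all genes, and none was lower at these times.

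Among 27 tested TGF-beta response genes, EDN1, the precursor of the constrictor peptide endothelin-1, rose by 1.71 ± 0.17 and 1.73 ± 0.17 at 1 h and was back to 0.06 and 0.02 at 18 h. CCN2, a matrix-associated growth factor, rose by 1.25 ± 0.27 and 1.35 ± 0.27 at 2 h (limma adjusted p = 0.00442 and 0.00193), as did TSC22D1 by 1.14 ± 0.34 and 1.21 ± 0.34 (0.0478 and 0.0411). At 2 h this list had 3 genes higher and 1 lower with Ind/GSK (ITGB1, -0.19 ± 0.05) and 3 higher with GS-5759, with medians of 0.13 and 0.18; over all genes 1.34% were called higher and 2.15% lower with Ind/GSK and 1.6% higher with GS-5759. With the block these counts were 5 higher and 4 lower with Ind/GSK (3.76% and 8.09% of all genes) and 6 and 2 with GS-5759 (5.27% and 4.05%). POSTN, a matrix protein, was called at 1 h with Ind/GSK, higher by 0.55 ± 0.11 (limma adjusted p = 0.00452), and was 0.28 ± 0.11 higher with GS-5759 (limma adjusted p = 0.811).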

How the data were processed

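The deposited intensity values are linear, 1 per probe set; the submitters' processing notes name PLIER and Affymetrix Expression Console as the authors' tools. Versions and the normalization between arrays were not given in the sources used here. Array medians of log2(intensity + 16) differed by less than 0.2 (7.00 to 7.17), so the deposited values were used unscaled; arrays have no read depth, and their number limits the precision. Each gene was represented by its brightest probe set with a single symbol, and genes above the 40th percentile of all probe sets were tested. Means of 12 groups over 48 arrays were fitted with limma 3.58.1 in R 4.3.3 (36 residual degrees of freedom). The fit was tried on simulated data without differences between replicate numbers, so that trial does not bear on them.

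Comparisons were each treatment with vehicle, the treatments with each other, and neighbouring times. The 10 members, all named, and the lists, from which up to 5 called genes with the largest differences were named, were chosen with earlier results of these data known. All 60 same-numbered pairs of arrays correlated above 0.1 after removal of group means (0.20 to 0.93; arrays of other numbers up to 0.75), which made the replicate number in the sample titles a pairing. Alternatives were other pseudocounts, scalings, filters and fits, adding the other single-symbol probe sets to those tested, the block, and leaving out arrays. Each member was read from its brightest probe set in all of them. Figures were drawn with matplotlib 3.10.9.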

Additional observations from a re-analysis of the deposited data

Results flagged for a closer look

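TGIF1's response changed between times: the mean difference from vehicle over both treatments was -0.88 on the log2 scale at 6 h relative to 2 h, by the interaction contrast of limma (adjusted p = 0.0251).

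In groups of 4 arrays, 6 of 120 had a highest or lowest array whose gap to the next passed the critical value of Dixon's test, and chance alone gives about 1 in 20 groups, or 6. Of these, 5 were arrays of replicate 3. ID2 was highest in replicate 3 after Ind/GSK at 6 h (3113) and with vehicle at 18 h (2726). SKIL was highest in replicate 3 with vehicle (871) and with GS-5759 (1038) at 1 h. TGFB2 was lowest in replicate 3 with GS-5759 at 6 h (1199). SMAD3 was highest in replicate 1 with GS-5759 at 6 h (1030.2).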

How the results depend on the processing

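Every alternative read the members from their brightest probe sets and kept the direction of each difference that had been called. TGIF1 was called in 25 of 26 fits with Ind/GSK at 1 h and in 26 of 26 in each of the other 3 comparisons at 1 and 2 h. In the fits on only the groups compared, no member was called with Ind/GSK at 1 h or for the change from 2 to 6 h (0 in both); fewer samples entered these fits.

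Pairing by replicate number, as a block, changed the counts of members called. With the replicate block they were 3, 4, 4 and 1 at 1, 2, 6 and 18 h with Ind/GSK, 2, 5, 3 and 0 with GS-5759, 1 between treatments over the mean of times, 0, 2 and 2 for the changes of response from 1 to 2, 2 to 6 and 6 to 18 h, and 3, 1 and 4 between vehicle times. With the block and 75th percentile centring, chosen after seeing the data like the other combinations with the block, they were 2, 4, 5 and 1, then 2, 5, 3 and 0, then 0, then 1, 3 and 3, and 1, 2 and 4. With the block and quantile normalization they were 2, 4, 5 and 1, then 2, 5, 3 and 0, then 0, then 1, 2 and 3, and 1, 1 and 4. The calls over all 14409 genes moved too. With Ind/GSK at 1 h they were 328 higher and 2280 lower with the block, 496 and 131 with centring and 346 and 215 with quantile normalization. With Ind/GSK at 6 h they were 675 and 1892, 968 and 1449, and 1017 and 1510. With GS-5759 at 6 h they were 866 and 660, 771 and 1529, and 914 and 1185. The cause was not tested.

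Leaving out arrays without the block gave 1 to 1 members in the treatment comparisons at 1 and 2 h, 0 to 1 at 6 h and 0 to 0 at 18 h and between the treatments. It gave 0 to 1 for the changes from 1 to 2 h and from 2 to 6 h and for vehicle at 6 against 2 h and 18 against 6 h, and 0 to 0 for the change from 6 to 18 h and vehicle at 2 against 1 h. The members gained without replicate 3 were ID2 in 5 comparisons. With the block and without each replicate number in turn, counts ran from 2 to 3 with Ind/GSK at 1, 2 h and GS-5759 at 1 h, 2 to 3 with Ind/GSK at 6 h, 0 to 1 at 18 h, 3 to 5 and 1 to 3 with GS-5759 at 2 and 6 h, and 0 to 1 over the mean of times. For the changes of response they ran from 0 to 1, 0 to 2 and 0 to 1, and between vehicle times from 0 to 3, 0 to 2 and 1 to 3. Of the other values over all alternatives, 4901 kept their side of the threshold and, where not called, moved by at most 1 SE; 168 passed it, 11 no longer did, and 14 that were called in neither fit moved by more than 1 SE. The number of arrays limited precision. INHBA, SMAD6 and SMAD7 had dim signals, and the part of this in their spread was not tested. For SMAD7 and the brighter ID1 the replicate number accounted for 86.7% and 83.0% of the sum of squares.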
